A study of Mus musculus with 12 samples.

Results

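Vesicle exocytosis and SNARE genes were taken from the gene count table of a mouse kidney study by their symbols. The set held the synaptotagmins and synaptotagmin-like proteins, the Doc2 genes, syntaxins and syntaxin binding proteins, the VAMP and SNAP SNAREs, synapsins, Sv2 genes, complexins, the Rims and Unc13 genes, Rab3 and Rab27 genes, and Nsf with its attachment proteins Napa, Napb and Napg. The symbols matched 80 of the 23378 genes in the table. RNA was measured by total RNA sequencing of cells sorted from kidney cortex of C57BL/6 mice that carry nNosCreERT2 and the mTmG reporter, 12 libraries in all. Macula densa cells, in which the Nos1-driven, tamoxifen-inducible Cre switches the reporter from red to green, were sorted as green cells. The control cells were the most intensely red cells of the cortex digests, which the submitters describe as epithelium of distal tubule and collecting duct. Mice received a control diet or, for 14 days, a diet low in salt plus enalapril, which inhibits angiotensin-converting enzyme, at 150 mg/L in drinking water. Macula densa cells gave 2 libraries on each diet and control cells gave 4 libraries on each diet, and every group carries the Cre and the reporter. The age and sex of the mice, and the tamoxifen schedule, were not given in the sources used here. The labels do not say that the libraries came from separate animals, so p-values measure the spread between these libraries.

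In regulated exocytosis a vesicle is brought to the plasma membrane by a Rab GTPase and its effectors, is docked and primed by Rims and Munc13 (Unc13) proteins, and fuses when a vesicle SNARE (VAMP) zips up with a syntaxin and a SNAP-25 family SNARE on the target membrane. Sec1/Munc18 proteins (Stxbp) hold and template syntaxin, and complexins clamp the assembled complex. Several synaptotagmins and Doc2 proteins sense calcium, and the ATPase Nsf with its cofactors takes the spent complex apart. Neurons are known for Snap25, Stx1a, Vamp2 and Syt1, whereas epithelial cells are known for Snap23, Stx3, Stx4a, Vamp8 and Stxbp2. Macula densa cells are salt-sensing tubule cells that release prostaglandin, nitric oxide and ATP onto the neighbouring juxtaglomerular apparatus.

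Library totals ran from 4259020 to 14856542 counts, of which a single transcript, Gm42418, took 53.5 to 65.0%. Levels are given as CPM, counts scaled by the library total and edgeR's trimmed mean of M values, and 3 counts stood for 0.231 to 0.734 CPM. The sort labels were checked on Nos1, which was at 100.4 to 232 CPM in the macula densa libraries and 0.109 to 0.735 CPM in the control-cell libraries. The control-cell libraries did not look alike. Summed over 5 podocyte markers (Nphs1, Podxl, Wt1 and Synpo among them), 5 of them stood at 638 to 1252 CPM and the other 3 (control diet replicate 4, low salt enalapril replicates 1 and 3) at 38.6 to 202 CPM. Summed over 6 endothelial markers the same 5 stood at 667 to 1243 CPM and the same 3 at 39.4 to 279 CPM, although the labels describe distal epithelium. All 5 podocyte and all 6 endothelial markers were called lower in macula densa cells, whose sums were 4.43 to 138 and 9.35 to 144 CPM, the highest in control diet replicate 1. The sum over 6 thick ascending limb markers, the segment that contains the macula densa, was 2269 to 4095 CPM in macula densa libraries and 199.9 to 1511 CPM in control-cell libraries. It was 1511, 735 and 946 CPM in the 3 control-cell libraries with low podocyte sums and 199.9 to 976 CPM in the other 5. The 5 collecting duct principal cell markers, by contrast, summed to 5.75 to 26.4 and 83.8 to 569 CPM.

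Of the 80 exocytosis genes, 57 had enough counts to be tested and 23 did not, and 49 had at least 1 count in every library. The 23 untested genes reached at most 2.13 CPM in any library. Among them were Cplx1, Cplx4, Doc2g, Rab3c, Rims1, Rims3, Rims4, Snap25, Snap91, Stxbp5l, Sv2b, Sv2c, Syn1, Syt1, Syt6, Syt12, Syt14, Syt16, Sytl3, Sytl5, Unc13c and Unc13d. Snap25, the neuronal target-membrane SNARE, gave 2 counts over the 4 macula densa libraries and 13 over the 8 control-cell libraries. In single libraries it gave at most 4 counts, Syt1, the fast calcium sensor of synapses, at most 5, and Syn1, the most studied synapsin, at most 3. The neuron and nerve markers, of which 3 of 7 were in the table, summed to 0.244 to 1.95 CPM in macula densa and 1.03 to 4.59 CPM in control cells.

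Levels were compared between genes per kilobase of exon, as means over libraries. In macula densa cells Sytl2, a Rab27 effector that tethers vesicles, had the highest level of the set, at 8.37 CPM per kilobase against 2.32 in control cells. The control-cell level was 1.23 CPM per kilobase without the low salt enalapril replicate 3, which stood at 138 CPM. Next to Sytl2 in macula densa cells came Stx16, a Golgi and endosome syntaxin, at 5.23, Vamp2 at 4.54, the endosomal Stx12 at 4.12 and Stxbp2, the Munc18 protein of epithelia and granulocytes, at 3.74 CPM per kilobase. In control cells Stx12 came first at 6.06, Stx4a, the basolateral target SNARE, second at 4.28 and Stx7 the third at 4.05 CPM per kilobase. Of the 10 highest genes in each cell type, 7 were the same. Sv2a, a vesicle membrane glycoprotein, ranked 8 in macula densa cells and 34 in control cells. The epithelial fusion genes Snap23 (2.59 and 3.34 CPM per kilobase in macula densa and control cells), Stx4a (3.34 and 4.28) and Vamp8 (2.38 and 2.75) were present in both. By CPM, Sytl2 alone made up 21.9 to 28.5% of the counts of the whole set in macula densa libraries, and 1.59 to 27.5% in control-cell libraries.

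**Figure D1:**
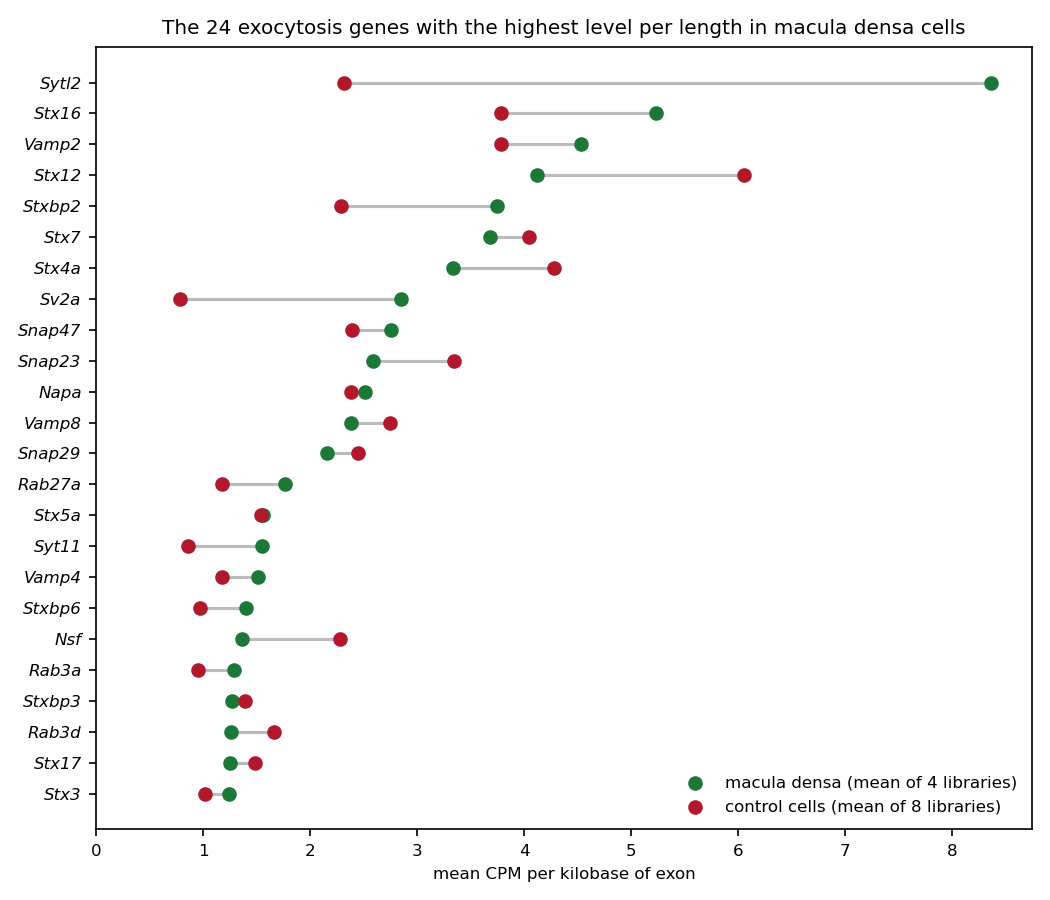
Mean CPM per kilobase of exon (linear axis) of the 24 exocytosis genes with the highest level in macula densa cells, for macula densa (green, mean of 4 libraries) and control cells (red, mean of 8 libraries). Sytl2 lies at 8.37 in macula densa and 2.32 in control cells (1.23 without low salt enalapril replicate 3), and Sv2a at 2.85 and 0.780.

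The main question of the design was how macula densa cells differ from other cortical cells. With macula densa and control cells compared over both diets (mean of the control diet and the low salt enalapril difference), 10 exocytosis genes had higher levels in macula densa cells and 4 had lower levels. The higher genes were the synaptotagmin and Doc2 family members Syt5, Syt11, Syt13, Syt17 and Doc2a, the GTPase Rab27b, the Rab27 effector Sytl2, the priming factor Unc13b, and the vesicle proteins Sv2a and Syn3. The lower genes were Syt7, Syn2, Vamp5 and Stx11. By edgeR's quasi-likelihood test with Benjamini-Hochberg adjustment over the 14180 genes tested, these had an adjusted p under 0.05. The 14 genes were 24.6% of the 57 tested, near the 21.3% called among all genes. By direction, 17.5% of the tested members were called higher against 7.48% of all genes, and 7.02% were called lower against 13.9%. That difference in direction was not tested. DESeq2 called 19 members (33.3%, all genes 26.2%) and limma-voom 14 (24.6%, all genes 18.7%). The median log2 fold change was 0.08 over the 57 genes and -0.06 over all genes tested. No overlap between the 4 macula densa and the 8 control-cell libraries was seen for 4 members that were higher (Syt5, Syn3, Rab27b and Syt17, where all genes gave 4.31%) and 1 that was lower (Syn2, all genes 5.28%). In bulk RNA, fewer cells of a type and less RNA per cell cannot be told apart.

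**Figure D2:**
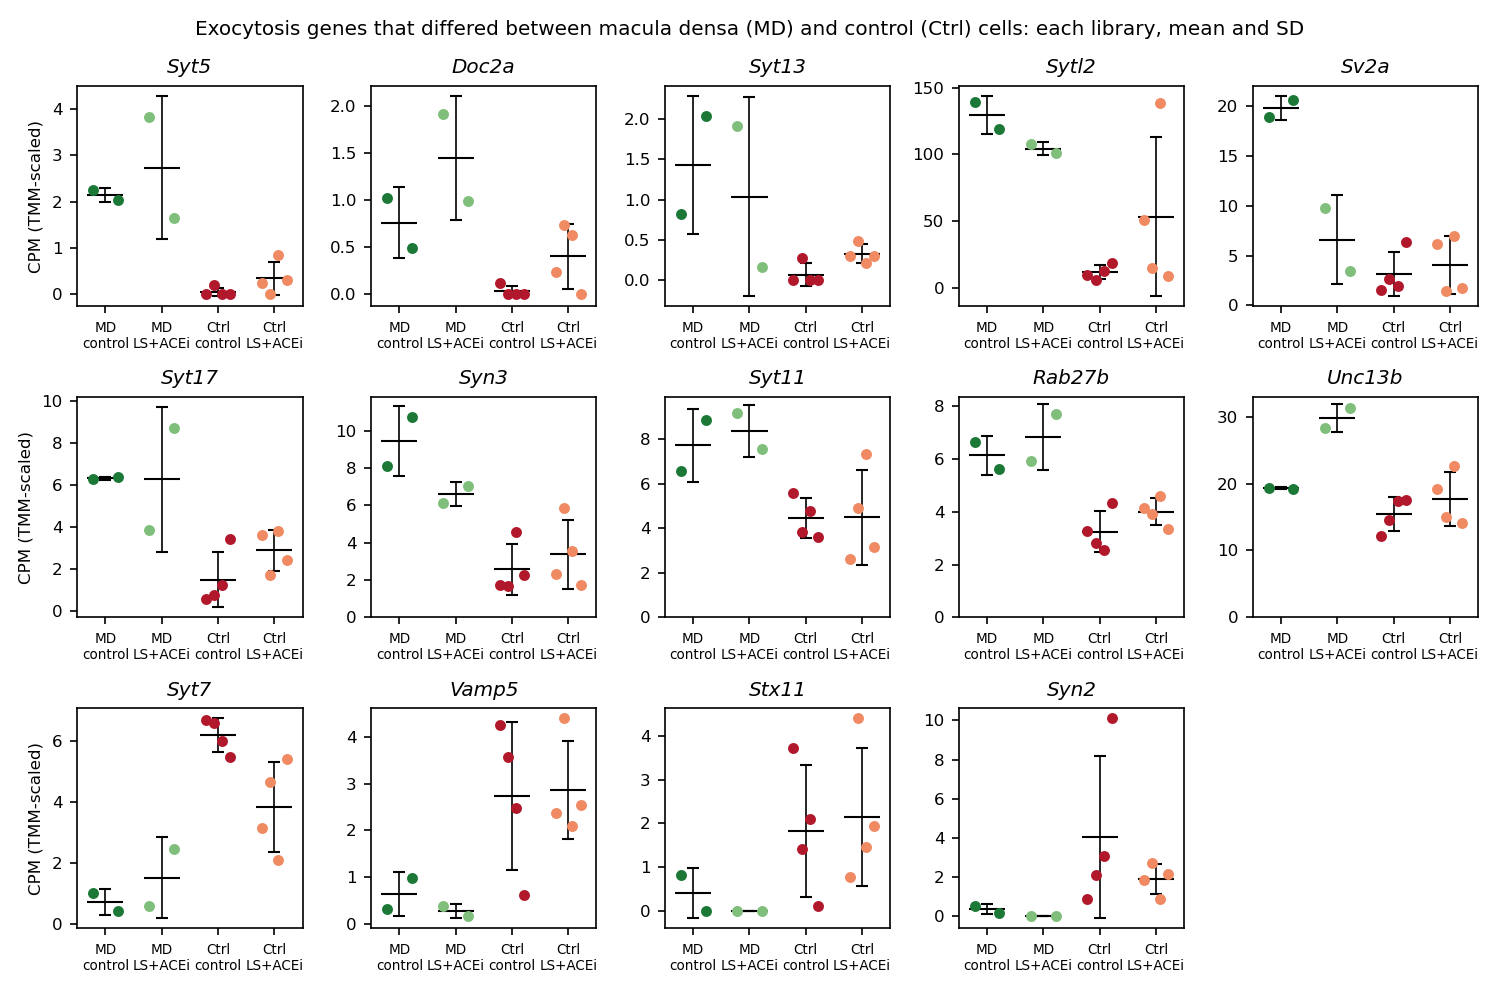
CPM (linear axes, scaled per gene) of the 14 exocytosis genes that differed between macula densa (MD) and control (Ctrl) cells over both diets, on the control diet (control) or under low salt with enalapril (LS+ACEi). Points are libraries, lines are group means and bars are SD (n = 2 for MD and 4 for Ctrl groups); in the Sytl2 panel 1 control-cell library lies among the macula densa libraries at 138 CPM.

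**Figure D3:**
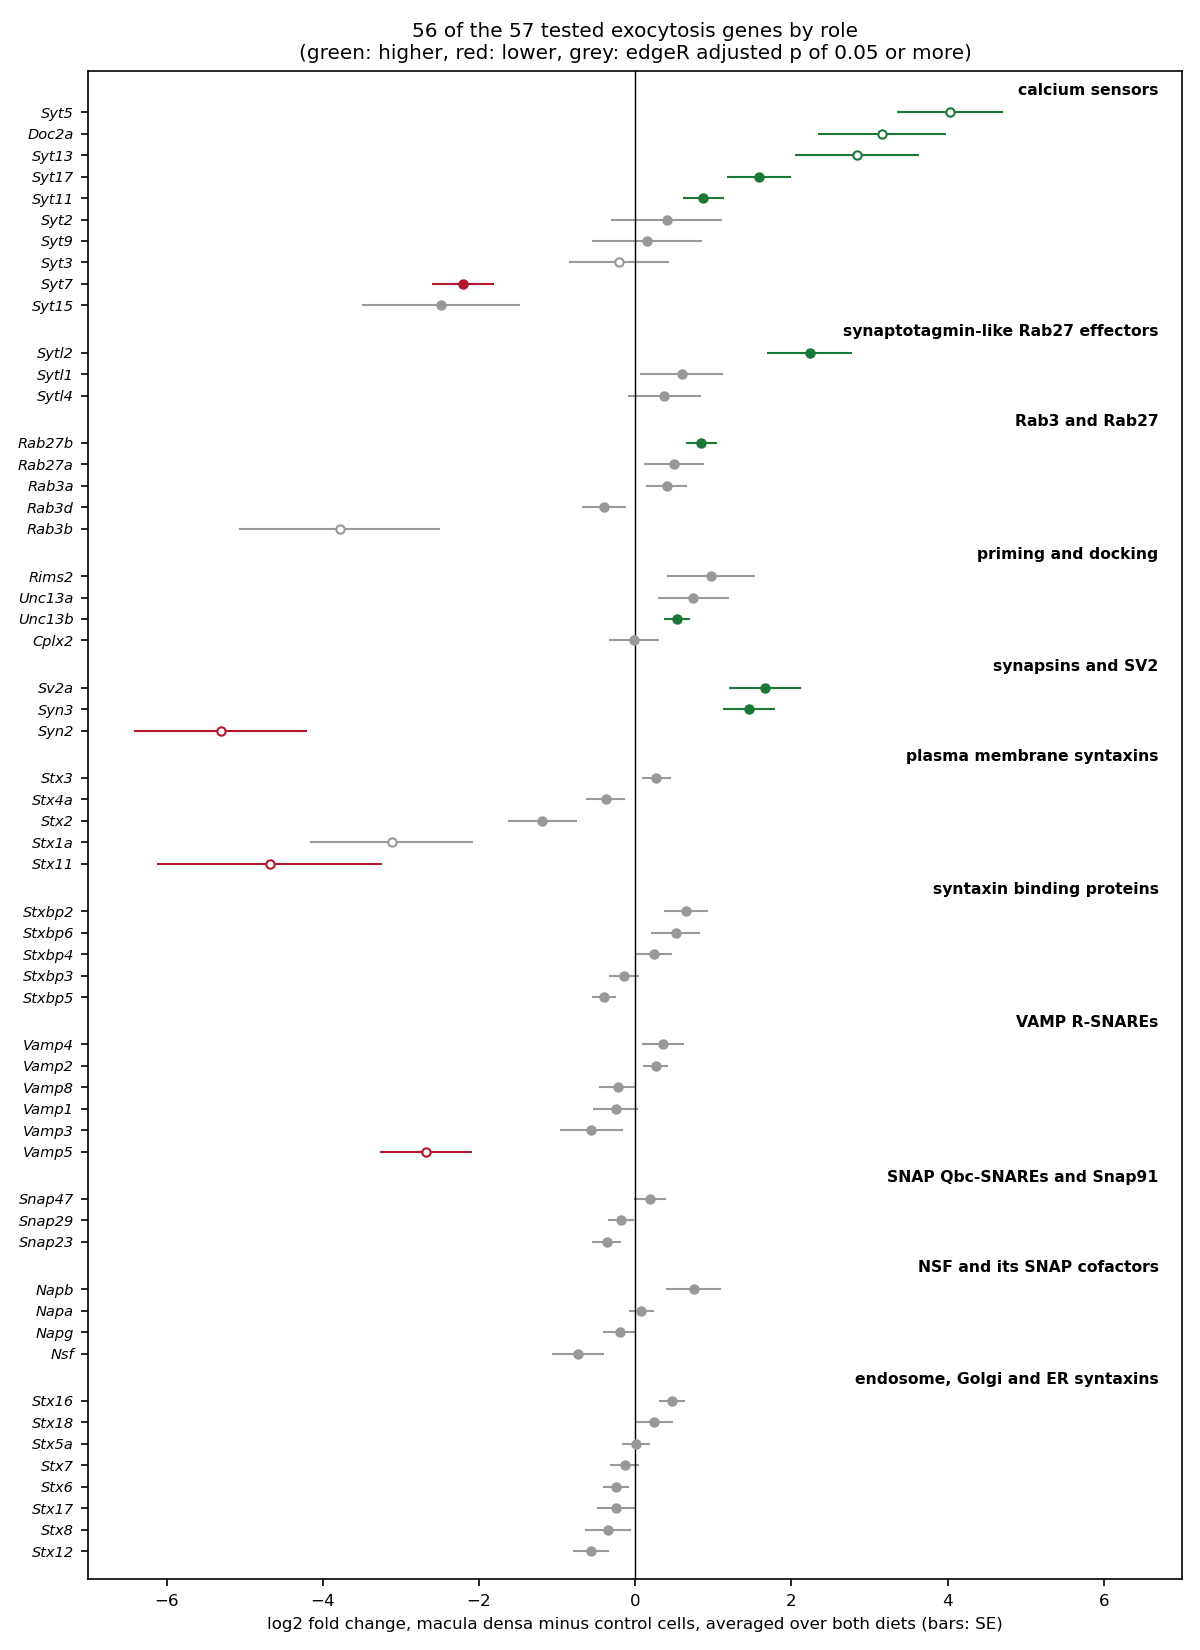
Log2 fold change (macula densa minus control cells, mean of both diets) of 56 of the 57 tested exocytosis genes, grouped by role, with bars for the SE. The calcium sensor role holds the tested synaptotagmins and Doc2 genes, also those that do not bind calcium. Green and red points are the 10 higher and 4 lower genes, grey points had an adjusted p of 0.05 or more, and open points have a group at 3 counts or fewer in its libraries, whose fitted value depends on the prior count.

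Among the synaptotagmins and Doc2 genes, 10 of 16 were tested, 5 were higher and 1 was lower. These include members that do not bind calcium, such as the higher genes Syt11 and Syt13. Of all genes tested, 7.48% were called higher and 13.9% lower. The counts for the other roles stand against the same shares. Syt5 (GRCm38 chromosome 7, 4539765 to 4547541, minus strand) encodes a calcium-binding synaptotagmin of secretory vesicles. It was at 2.26 and 2.04 CPM in the control-diet macula densa libraries and 3.83 and 1.64 CPM in the low salt enalapril ones. It was at 0, 0.188, 0 and 0 CPM in control cells on the control diet and 0.231, 0, 0.840 and 0.305 CPM in control cells under low salt with enalapril, so that each macula densa library lay above all 8 control-cell libraries. Over the pooled counts of both diets the level was 13.8 (95% interval 7.46 to 27.8) times that of control cells, an interval for counting error only, with 77 counts against 12 and an adjusted p of 0.00194.

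Syt7 (chromosome 19, 10389090 to 10453180, plus strand), a high-affinity calcium sensor of lysosome and granule exocytosis, went the other way. Its level was 1.03 and 0.407 CPM in the control-diet macula densa libraries and 0.575 and 2.46 CPM in the low salt enalapril ones. In the control-cell libraries it was 6.67, 6.58, 6.00 and 5.48 CPM in control cells on the control diet and 3.15, 4.65, 2.10 and 5.39 CPM in control cells under low salt with enalapril. The control-diet groups did not overlap, while under low salt with enalapril 1 macula densa library (2.46 CPM) lay above the lowest control-cell library. Its log2 fold change was -2.21 (SE 0.40), with an adjusted p of 0.00294, and was -2.91 without the low salt enalapril macula densa replicate 2.

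Syt17 (chromosome 7, 118380717 to 118448222, minus strand), a synaptotagmin relative of intracellular membranes, stood at 6.26 and 6.35 CPM in the control-diet macula densa libraries and 3.83 and 8.69 CPM in the low salt enalapril ones. It stood at 0.547, 0.752, 1.24 and 3.41 CPM in control cells on the control diet and 3.61, 1.71, 3.78 and 2.44 CPM in control cells under low salt with enalapril. All macula densa libraries were above all control-cell libraries, and the log2 fold change was 1.59 (SE 0.41) with an adjusted p of 0.0170. The 3 control-cell libraries with low podocyte and endothelial marker sums held the highest Syt17 levels of the 8, 3.41, 3.61 and 3.78 CPM.

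Syt11 (chromosome 3, 88744700 to 88775164, minus strand), a synaptotagmin that does not bind calcium, was at 6.57 and 8.88 CPM in the control-diet macula densa libraries and 9.20 and 7.55 CPM in the low salt enalapril ones. Control cells had 5.58, 3.85, 4.76 and 3.62 CPM on the control diet and 2.613, 4.90, 7.35 and 3.15 CPM under low salt with enalapril. The groups overlapped through 1 control-cell library at 7.35 CPM, and the log2 fold change was 0.87 (SE 0.26) with an adjusted p of 0.0343. Syt11 had the highest level per length of the synaptotagmins and Doc2 genes, 1.55 CPM per kilobase in macula densa and 0.860 in control cells.

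Syt13 and Doc2a rested on few counts. Syt13 (chromosome 2, 92915098 to 92956058, plus strand), another synaptotagmin without calcium binding, was at 0.821 and 2.04 CPM in the control-diet macula densa libraries and 1.92 and 0.164 CPM in the low salt enalapril ones. In control cells it was at 0, 0.282, 0 and 0 CPM on the control diet and 0.307, 0.490, 0.210 and 0.305 CPM under low salt with enalapril, where 1 macula densa library lay below all 4. The pooled ratio was 7.28 (95% interval 3.85 to 14.7) from 44 and 13 counts, with an adjusted p of 0.0249. Doc2a (chromosome 7, 126847416 to 126852705, plus strand), a C2-domain sensor of spontaneous transmitter release, was at 1.03 and 0.489 CPM in the control-diet macula densa libraries and 1.92 and 0.984 CPM in the low salt enalapril ones. In control cells it was at 0.109, 0, 0 and 0 CPM on the control diet and 0.231, 0.734, 0.630 and 0 CPM under low salt with enalapril. The pooled ratio was 6.88 (95% interval 3.30 to 15.7) from 32 and 10 counts, with an adjusted p of 0.0173. Exons of Doc2a overlap Ino80e on the opposite strand, whose own log2 fold change was 0.62 (adjusted p 0.0592). The library kit keeps strand, but the strand setting of the counting was not given in the sources used here, so reads of such pairs may be mixed.

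The tested synaptotagmins without a call were Syt2, Syt3, Syt9 and Syt15. Syt15, a calcium-independent member, was at 0.103 and 0.326 CPM in the control-diet macula densa libraries and 0.958 and 0 CPM in the low salt enalapril ones. It was at 3.17, 1.60, 2.95 and 0.207 CPM in control cells on the control diet and 0.769, 3.18, 0 and 3.05 CPM in control cells under low salt with enalapril. Its log2 fold change was -2.49 (SE 1.01) with an adjusted p of 0.101, and its 3 lowest control-cell values (0 to 0.769 CPM) were the 3 libraries with low podocyte marker sums.

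Of the synaptotagmin-like Rab27 effectors 3 of 5 were tested, and Sytl2 (chromosome 7, 90302252 to 90410719, plus strand) was called higher. It stood at 139 and 119 CPM in the control-diet macula densa libraries and 108 and 101 CPM in the low salt enalapril ones. The values were 9.51, 5.73, 12.8 and 18.1 CPM in control cells on the control diet and 50.5, 14.7, 138 and 8.95 CPM in control cells under low salt with enalapril. Low salt enalapril replicate 3 of the control cells thus lay within the macula densa range, and replicate 1 was next. Both are among the 3 control-cell libraries with low podocyte marker sums, and the third of these, control diet replicate 4, was the highest of its group. These 3 libraries had thick ascending limb sums of 735 to 1511 CPM, against 199.9 to 976 CPM in the other 5. The part of such cells in the Sytl2 values was not tested. The mean was 117 ± 17.0 CPM (SD, n = 4) in macula densa and 32.3 ± 45.1 CPM (SD, n = 8) in control cells. Sytl2 had a log2 fold change of 2.23 (SE 0.55) with an adjusted p of 0.0136. It remained called without those 3 libraries (log2 fold change 3.5) and also without the other 5 (1.49). Sytl1 and Sytl4, granule-docking effectors of the same family, had log2 fold changes of 0.59 (SE 0.53) and 0.37 (SE 0.47) and adjusted p of 0.463 and 0.623.

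Of the Rab3 and Rab27 GTPases, which mark secretory vesicles, 5 of 6 were tested and Rab27b was called higher. It was at 6.67 and 5.62 CPM in the control-diet macula densa libraries and 5.94 and 7.71 CPM in the low salt enalapril ones. Control cells had 3.28, 2.82, 2.57 and 4.34 CPM on the control diet and 4.15, 3.92, 4.62 and 3.36 CPM under low salt with enalapril. All macula densa libraries lay above all control-cell libraries, with means of 6.48 ± 0.927 (SD, n = 4) and 3.63 ± 0.738 CPM (SD, n = 8). Rab27b had a log2 fold change of 0.84 (SE 0.20) with an adjusted p of 0.0111. Its paralog Rab27a, known for melanosome and lytic granule docking, was at 7.80 and 10.9 CPM in the control-diet macula densa libraries and 4.21 and 4.43 CPM in the low salt enalapril ones. In control cells Rab27a was at 3.06, 2.82, 4.38 and 7.34 CPM on the control diet and 3.46, 2.45, 10.3 and 2.75 CPM under low salt with enalapril. The ranges overlapped and the log2 fold change was 0.50 (SE 0.39) with an adjusted p of 0.398. Rab3a, the main neuronal Rab3, had a log2 fold change of 0.40 (SE 0.27, adjusted p 0.316), at 1.80 to 3.67 CPM in macula densa and 1.43 to 2.79 CPM in control cells. Rab3d, of exocrine granules and the highest of this role per length, ranged from 3.28 to 6.68 and from 4.78 to 12.4 CPM (adjusted p 0.344).

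Rab3b, Nsf and Stx2 were high where the podocyte and endothelial marker sums of the control cells were high, and the part of those cells in the values was not tested. Rab3b, of pituitary and other secretory cells, was at 1.44, 0.0815, 0.192 and 0 CPM in the 4 macula densa libraries, the highest being control diet replicate 1, and at 4.76 to 7.33 CPM in the 5 control-cell libraries with high sums. In the 3 control-cell libraries with low sums it was at 0.103, 0.538 and 0.420 CPM. Over all libraries its adjusted p was 0.0548. Nsf, the ATPase that disassembles SNARE complexes, was at 9.34, 12.9, 12.5 and 10.7 CPM in macula densa, 19.7 to 29.5 CPM in the 5 control-cell libraries and 8.99, 9.91 and 11.1 CPM in the 3. Stx2, a broadly expressed plasma membrane syntaxin, showed the same order, at 10.2, 5.38, 3.83 and 2.62 CPM in macula densa, 12 to 21.9 CPM in the 5 and 3.20, 7.45 and 5.88 CPM in the 3. The adjusted p over all libraries was 0.144 for Nsf and 0.0737 for Stx2.

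**Figure D4:**
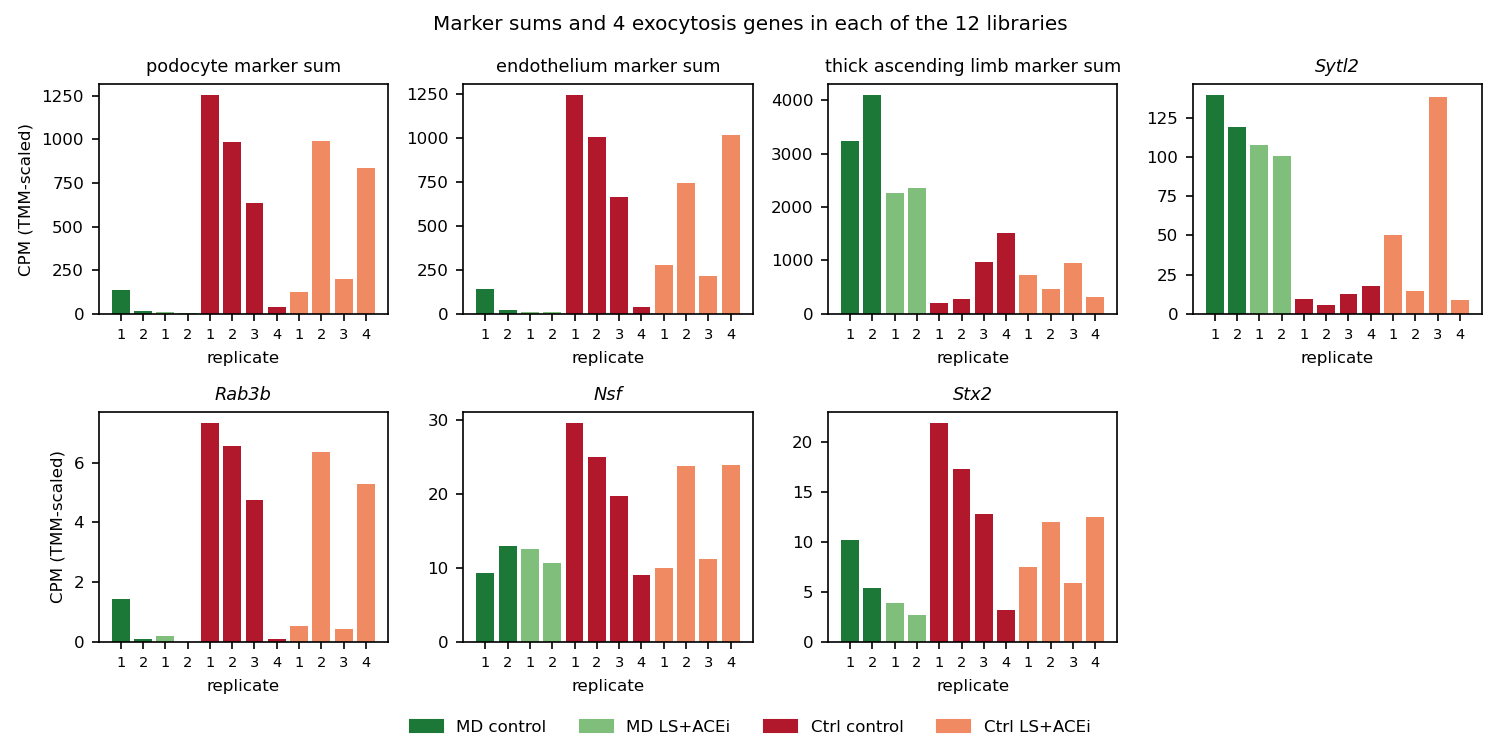
CPM (bars from 0) in each of the 12 libraries of the summed podocyte, endothelium and thick ascending limb markers and of 4 exocytosis genes, coloured by group (MD, macula densa; Ctrl, control cells). In control cells the bars of Rab3b, Nsf and Stx2 are lowest in the libraries with low podocyte sums (control diet replicate 4, low salt enalapril replicates 1 and 3), in which Sytl2 is highest.

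Among the docking and priming genes (Unc13, Rims and complexins), 4 of 11 were tested and Unc13b was higher. Unc13b (chromosome 4, 43058953 to 43264871, plus strand) encodes Munc13-2, which opens syntaxin for SNARE assembly. It was at 19.4 and 19.2 CPM in the control-diet macula densa libraries and 28.4 and 31.3 CPM in the low salt enalapril ones. It was at 12.1, 14.6, 17.3 and 17.6 CPM in control cells on the control diet and 19.1, 14.9, 22.7 and 14.0 CPM in control cells under low salt with enalapril. Unc13b had a log2 fold change of 0.54 (SE 0.17) with an adjusted p of 0.0364. The low salt enalapril macula densa libraries were above every other library, while the control-diet pair was within the range of the control cells. Cplx2, a complexin, was the highest of this role per length over all libraries together, but not in macula densa cells, where Unc13b was higher. Cplx2 was at 3.12 to 5.13 CPM in macula densa and 1.65 to 6.12 CPM in control cells, with a log2 fold change of -0.02 (SE 0.32). Its adjusted p was 0.978.

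Of the synapsins and Sv2 genes, 3 of 6 were tested, and Sv2a and Syn3 were higher and Syn2 lower. Sv2a (chromosome 3, 96181151 to 96195521, plus strand), the vesicle glycoprotein bound by the drug levetiracetam, was at 19.0 and 20.7 CPM in the control-diet macula densa libraries and 9.77 and 3.44 CPM in the low salt enalapril ones. It was at 1.53, 2.63, 2.0 and 6.41 CPM in control cells on the control diet and 6.23, 1.47, 6.93 and 1.73 CPM in control cells under low salt with enalapril. On the control diet the macula densa libraries were above all control-cell libraries, and under low salt with enalapril the ranges overlapped. The log2 fold change was 1.66 (SE 0.46) with an adjusted p of 0.0236. The 3 highest control-cell values, 6.23 to 6.93 CPM, were the 3 libraries with low podocyte marker sums.

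Syn3 (chromosome 10, 86055125 to 86498896, minus strand), a synapsin, was at 8.10 and 10.8 CPM in the control-diet macula densa libraries and 6.13 and 7.05 CPM in the low salt enalapril ones. It was at 1.75, 1.69, 4.57 and 2.27 CPM in control cells on the control diet and 2.31, 5.88, 3.57 and 1.73 CPM in control cells under low salt with enalapril. All macula densa libraries were above all control-cell libraries, and the log2 fold change was 1.45 (SE 0.34) with an adjusted p of 0.0101. Timp3, a metalloproteinase inhibitor gene on the opposite strand within Syn3, went in the opposite direction, with a log2 fold change of -1.92 (SE 0.23) and an adjusted p of 2.04e-04. Syn2 (chromosome 6, 115134902 to 115282006, plus strand) was at 0.513 and 0.163 CPM in the control-diet macula densa libraries and 0 and 0 CPM in the low salt enalapril ones, and at 0.875, 2.07, 3.05 and 10.1 CPM in control cells on the control diet and 1.84, 2.69, 0.840 and 2.14 CPM in control cells under low salt with enalapril. Control diet replicate 4 stood apart from its group at 10.1 CPM, and every control-cell library was above every macula densa library. The pooled level in control cells was 14.6 (95% interval 6.98 to 36.8) times that in macula densa cells, from 220 and 7 counts, with an adjusted p of 0.00706. Of the 220 counts 98 came from control diet replicate 4, without which the ratio was 9.37 (95% interval 4.41 to 23.8), and without the control-diet macula densa replicate 1, which held 5 of the 7 counts, it was 36.2 (95% interval 9.91 to 300.9). Timp4, which overlaps Syn2 on the opposite strand, was at 0 to 1.15 CPM in the 12 libraries and was not tested.

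Start-site sequences from RefSeq (GRCm38.p6) were available for 61 of the 80 genes, with 76 windows of the 250 bases before an annotated start. The windows of Sv2a and Unc13b (higher) and Vamp5 (lower) are printed because these genes differed in opposite directions while their start regions share a motif. Capitals mark the GC box GGGCGG, bound by Sp1 family factors, or its reverse complement, and in Unc13b also the E-box CACGTG. The window of Sv2a is chr3:96180977-96181226 on the plus strand, that of Unc13b chr4:43058703-43058952 on the plus strand and that of Vamp5 chr6:72380469-72380718 on the minus strand.
Sv2a: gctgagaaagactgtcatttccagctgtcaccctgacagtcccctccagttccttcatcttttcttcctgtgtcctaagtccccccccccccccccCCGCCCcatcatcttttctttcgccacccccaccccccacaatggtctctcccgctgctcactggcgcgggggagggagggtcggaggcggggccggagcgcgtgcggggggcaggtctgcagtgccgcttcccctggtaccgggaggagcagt
Unc13b: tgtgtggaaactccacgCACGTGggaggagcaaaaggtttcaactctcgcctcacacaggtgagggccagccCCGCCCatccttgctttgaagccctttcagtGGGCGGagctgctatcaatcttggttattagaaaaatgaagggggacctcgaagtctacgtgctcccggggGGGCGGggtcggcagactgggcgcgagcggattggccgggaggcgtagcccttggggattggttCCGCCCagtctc
Vamp5: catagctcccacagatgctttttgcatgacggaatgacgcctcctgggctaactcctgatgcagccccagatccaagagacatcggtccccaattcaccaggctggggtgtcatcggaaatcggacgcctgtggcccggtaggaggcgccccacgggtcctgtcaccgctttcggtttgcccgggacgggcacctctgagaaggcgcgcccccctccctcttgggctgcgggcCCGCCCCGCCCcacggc
Unc13b has 4 GC boxes, Sv2a 1, and Vamp5 has 2 that overlap by 1 base. Of the 76 windows of the exocytosis genes 45 (59.2%) held a GC box on either strand, against 32.7% of all 32851 windows. The E-box was found in 11 of 76 (14.5%, all windows 6.02%). The cAMP response element TGACGTCA was found in 2 (2.63%, all 1.55%). The TATA box TATAAA was found in 5 (6.58%, all 12.4%). The estrogen-related receptor element TCAAGGTCA and the left part of the RE1 element, TTCAGCACC, were each found in 1 window (1.32%), where all windows gave 0.387% and 0.301%. These motifs were looked for on both strands, several windows share a gene, and a match is a description of letters only. The shares were not adjusted for GC content, whose median was 52.4% over all windows. The printed windows had a GC content of 66% (Sv2a), 60.8% (Unc13b) and 66% (Vamp5).

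Of the plasma membrane syntaxins 5 of 6 were tested and Stx11 was lower. Stx11 (chromosome 10, 12938209 to 12964298, minus strand), the syntaxin of cytotoxic granule release in lymphocytes, was at 0.821, 0, 0 and 0 CPM in macula densa libraries. It was at 3.72, 1.41, 2.10 and 0.103 CPM in control cells on the control diet and 0.769, 4.41, 1.47 and 1.93 CPM in control cells under low salt with enalapril. The pooled level in control cells was 7.33 (95% interval 3.61 to 17.3) times that in macula densa cells, from 126 and 8 counts, with ranges that overlapped and an adjusted p of 0.0386. All 8 macula densa counts came from control diet replicate 1, and without control diet replicate 2, which had none, the ratio was 4.63. Leukocyte markers summed to 2.62 to 5.94 CPM in macula densa and 3.57 to 88.6 CPM in control cells, and their part in this difference was not tested. Stx3, the apical syntaxin of epithelia, was at 6.40 to 8.06 CPM in macula densa and 4.67 to 8.38 CPM in control cells, with a log2 fold change of 0.27 (SE 0.19) and an adjusted p of 0.329. Stx4a had a log2 fold change of -0.38 (SE 0.25) and an adjusted p of 0.317. Stx1a, the neuronal syntaxin, was at 0.616, 0.489, 0 and 0 CPM in macula densa, and at 1.09, 0.752, 1.14 and 0.207 CPM in control cells on the control diet and 0.538, 0.490, 0.210 and 1.53 CPM in control cells under low salt with enalapril. The pooled level in control cells was 2.21 (95% interval 1.17 to 4.53) times that in macula densa cells, with an adjusted p of 0.0548.

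All 6 VAMP genes were tested and Vamp5 was lower. Vamp5 (chromosome 6, 72368794 to 72380468, minus strand), a SNARE known from muscle and endothelium, was at 0.308 and 0.977 CPM in the control-diet macula densa libraries and 0.383 and 0.164 CPM in the low salt enalapril ones. It was at 4.26, 3.57, 2.48 and 0.620 CPM in control cells on the control diet and 2.38, 4.41, 2.10 and 2.54 CPM in control cells under low salt with enalapril. The pooled level in control cells was 4.99 (95% interval 3.07 to 8.60) times that in macula densa cells, from 193 and 18 counts, with an adjusted p of 0.00837. It was 9.46 without the control-diet macula densa replicate 2, which held 12 of the 18 counts. The ranges overlapped through the lowest control-cell library, control diet replicate 4 at 0.620 CPM, which also had the lowest podocyte and endothelial marker sums of the 8. Vamp2, the vesicle SNARE of synapses and of regulated exocytosis elsewhere, was at 13.6 and 20.9 CPM in the control-diet macula densa libraries and 17.6 and 16.9 CPM in the low salt enalapril ones. It was at 11.1 to 16.8 CPM (median 14.3) in the control-cell libraries, with a log2 fold change of 0.26 (SE 0.16) and an adjusted p of 0.280. Vamp8, the epithelial endosome and granule SNARE, had a log2 fold change of -0.23 (SE 0.24) and an adjusted p of 0.538.

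Of the SNAP family 3 of 5 were tested and none was called. Snap23, the SNAP of non-neuronal cells, was at 11.8 and 9.37 CPM in the control-diet macula densa libraries and 11.1 and 12.1 CPM in the low salt enalapril ones. It was at 17.1, 18, 14.2 and 10.1 CPM in control cells on the control diet and 11.6, 14.0, 17.2 and 12.5 CPM in control cells under low salt with enalapril. The ranges overlapped, with a log2 fold change of -0.37 (SE 0.19) and an adjusted p of 0.193. None of the 6 tested syntaxin binding proteins was called. Stxbp2, the partner of Stx3 and Stx11, was at 8.82 and 13.2 CPM in the control-diet macula densa libraries and 17.4 and 22.8 CPM in the low salt enalapril ones. It was at 5.69, 6.58, 9.33 and 15.3 CPM in control cells on the control diet and 10.45, 7.10, 14.1 and 7.53 CPM in control cells under low salt with enalapril, with a log2 fold change of 0.65 (SE 0.28) and an adjusted p of 0.114. Nsf, Napa, Napb and Napg were all tested without a call. Napa, alpha-SNAP, had a mean of 9.49 ± 1.88 CPM in macula densa (SD, n = 4) and 9.03 ± 1.18 CPM in control cells (SD, n = 8), with a log2 fold change of 0.08 (SE 0.16) and an adjusted p of 0.783. All 8 syntaxins of endosomes, Golgi and endoplasmic reticulum were tested without a call. Of these Stx16 had the smallest adjusted p (0.0629, log2 fold change 0.47, SE 0.17), and Stx12 had 0.0983 and -0.57 (SE 0.23).

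On the control diet alone, 5 members were called between the 2 macula densa and the 4 control-cell libraries, 8.77% of the 57 against 6.61% of all genes. The 4 higher genes (7.02%, all genes 2.69%) were Syt5, Sytl2, Sv2a and Syn3, and Syt7 was the lower one (1.75%, all genes 3.92%). The pooled Syt5 ratio was 42.7 (95% interval 11.2 to 363) from 47 and 2 counts (adjusted p 0.0134), and both control-cell counts came from replicate 2. The log2 fold change was 3.49 (SE 0.79) for Sytl2, adjusted p 0.0235, and 2.65 (SE 0.62) for Sv2a, adjusted p 0.0274. For Syn3 it was 1.87 (SE 0.46, adjusted p 0.0336) and for Syt7 -3.12 (SE 0.58, adjusted p 0.00956). The value of Sv2a was 3.26 without control-cell replicate 4, and that of Syt7 was -3.86 without macula densa replicate 1 and -2.52, no longer called, without replicate 2. In each of these 5 genes the groups did not overlap. Groups lay apart for 29.8% of the tested members higher and 7.02% lower, against 15.2% and 16.7% of all genes. DESeq2 called 11 members (19.3%, all genes 14.1%) and limma-voom 10 (17.5%, all genes 13.5%). With 2 macula densa libraries the calls rested on both: without replicate 1 the count was 1 (1.49%, all genes 1.61%), and without replicate 2 it was 0 (all genes 0.755%). Without control-cell replicate 4 it was 11 (19.3%, all genes 17.7%), and without replicate 1, 2 or 3 it was 3 (5.26 to 5.36%, all genes 2.94 to 4.06%).

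Under low salt with enalapril no member was called by edgeR, where all genes gave 7.27% (3.15% higher and 4.13% lower). At an unadjusted p under 0.05 there were 14 (24.6%, all genes 25.3%), and DESeq2 called 5 (all genes 13.6%) and limma-voom 1 (3.64%). The smallest p-values belonged to Vamp5, Syn2, Syt5 and Unc13b. Vamp5 was 10 (95% interval 3.31 to 49.5) times higher in control cells by pooled counts (84 and 3 counts, adjusted p 0.0515). Syn2 gave 0 counts in macula densa against 60, so its level was at least 7.14-fold lower against 3 counts over the group (adjusted p 0.0628). The log2 fold change was 2.99 (SE 0.89) for Syt5 (adjusted p 0.0632) and 0.75 (SE 0.23) for Unc13b (adjusted p 0.0716). In all 4 genes the groups did not overlap, which was common with so few libraries. Groups lay apart for 17.5% of the tested members higher and 15.8% lower, against 15.3% and 19.5% of all genes. The Vamp5 ratio was 16.2 (95% interval 2.82 to 646) without the macula densa replicate 1, which left 1 count. The count was 7 (12.3%, all genes 13.5%) without the control-diet control-cell replicate 4 and 3 (5.26%, all genes 7.40%) without the low salt enalapril control-cell replicate 3. It was 1 (1.79%, all genes 7.17%) without the control-diet control-cell replicate 1.

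The diet comparison within macula densa cells asked what low salt with enalapril changed in 2 against 2 libraries. No member was called, and no gene of the 14180 was (0.00%). At an unadjusted p under 0.05 there were 3 members (5.26%, all genes 11.2%), and DESeq2 (all genes 0.656%) and limma-voom (0.0282%) called 0 each. Syt2, a fast synaptic calcium sensor, was at 0.205 and 0.326 CPM on the control diet and 3.26 and 1.64 CPM under low salt with enalapril (log2 fold change 3.11, SE 1.14, adjusted p 0.360). Stx1a was at 0.616 and 0.489 CPM and at 0 in both low salt enalapril libraries, at least 2.06-fold lower against 3 counts over the group (adjusted p 0.363). Unc13b was at 19.4 and 19.2 CPM on the control diet and 28.4 and 31.3 CPM under low salt with enalapril (log2 fold change 0.63, SE 0.28, adjusted p 0.431), and the pairs lay apart. Sv2a was at 19.0 and 20.7 CPM on the control diet and 9.77 and 3.44 CPM under low salt with enalapril (log2 fold change -1.59, SE 0.77, adjusted p 0.467). The marker sums of these libraries lay apart by diet as well. The thick ascending limb sum was 3232 and 4095 CPM on the control diet and 2269 and 2364 CPM under low salt with enalapril, and the sum of 3 macula densa markers was 344 and 356 CPM and 1182 and 612 CPM. Single markers did not all follow the sums. Slc12a1, a thick ascending limb marker, was at 1769 and 2026 CPM on the control diet and 1875 and 2012 CPM under low salt with enalapril. Of the macula densa markers, Ptgs2 was at 15.9 and 14.3 CPM and then 175 and 108 CPM. Nos1 was at 100.4 and 111 CPM and then 232 and 122 CPM. The part of these markers in the values above was not tested. Without the low salt enalapril replicate 1 the log2 fold change of Sv2a was -2.59 and that of Syt2 2.48. Groups that lay apart were 7 members higher and 15 lower (12.3 and 26.3%, all genes 18.8 and 21.8%). In data simulated for this comparison, 24% of 200 genes changed 4-fold were recovered among 13266.

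In control cells, 4 against 4 libraries, no member was called either, where all genes gave 0.00705% (1 gene). At an unadjusted p under 0.05 there were 5 (8.77%, all genes 6.45%), and DESeq2 (all genes 0.522%) and limma-voom (0.00705%) called 0. Sytl2 was at 9.51, 5.73, 12.8 and 18.1 CPM on the control diet and 50.5, 14.7, 138 and 8.95 CPM under low salt with enalapril, with a log2 fold change of 2.20 (SE 0.69) and an adjusted p of 0.600. Without the highest library, low salt enalapril replicate 3, the log2 fold change was 1.12. The 2 high libraries are those with low podocyte marker sums. Their thick ascending limb sums were 735 and 946 CPM, against 461 and 307 CPM in low salt enalapril replicates 2 and 4. The part of such cells was not tested. Rims2, an active zone scaffold that binds Rab3, was at 0.219, 0.564, 0.857 and 1.34 CPM on the control diet and 4.0, 2.45, 1.89 and 1.42 CPM under low salt with enalapril, without overlap (log2 fold change 1.71, SE 0.70, adjusted p 0.727). It was the 1 member whose low salt enalapril libraries all lay above the control-diet ones (1.75%, all genes 2.10%), and Syt7 the 1 whose libraries all lay below (1.75%, all genes 2.09%). Doc2a gave 1 count on the control diet and 9 under low salt with enalapril, a ratio of 11.3 (95% interval 1.57 to 497), with an adjusted p of 0.706. Syt5 gave 2 and 10 counts, a ratio of 6.30 (95% interval 1.34 to 59.2), with an adjusted p of 0.755.

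The difference of the diet effects between macula densa and control cells was not called for any member (all genes 0.00%), with 2 at an unadjusted p under 0.05 (3.51%, all genes 7.03%) and 0 by DESeq2 (all genes 0.0917%) and limma-voom (0.00%). The smallest p-values belonged to Stx1a, with 0 counts in a group (adjusted p 0.688), and to Syt7, with a log2 difference of 1.81 (SE 0.77) and an adjusted p of 0.688. Sytl2 followed with -2.51 (SE 1.16) and an adjusted p of 0.713, and Sv2a with -1.99 (SE 0.95) and 0.722. The Syt7 level was 1.03 and 0.407 CPM on the control diet and 0.575 and 2.46 CPM under low salt with enalapril in macula densa, and 6.18 ± 0.556 and 3.82 ± 1.48 CPM (SD, n = 4) in control cells on the control and the low salt enalapril diets.

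**Figure D5:**
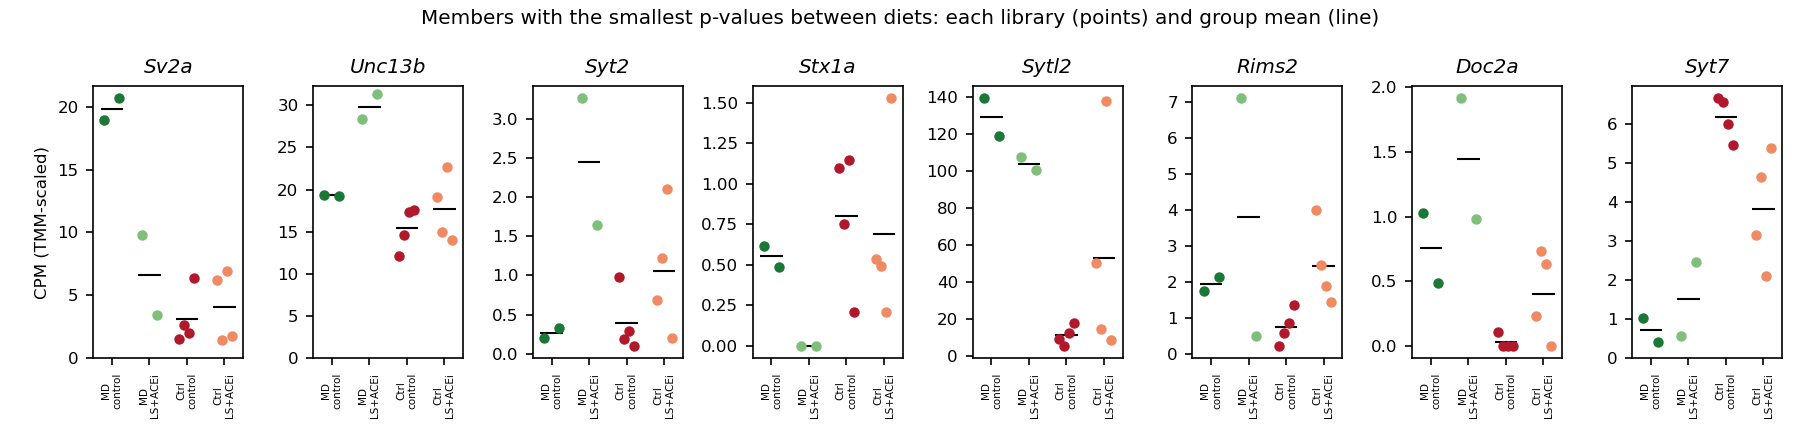
CPM (linear axes, scaled per gene) of 8 exocytosis genes with small p-values between the diets or in the difference of the diet effects, for macula densa (MD) and control (Ctrl) cells on the control diet (control) and under low salt with enalapril (LS+ACEi). Points are libraries and lines group means; for Unc13b the 2 low salt enalapril macula densa points (28.4 and 31.3 CPM) lie above all others, and for Sytl2 the 4 low salt enalapril control-cell points spread from 8.95 to 138 CPM.

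Because the control-cell libraries differed in their podocyte and endothelial marker sums, the comparison over both diets was repeated with either set of them, a split at 300 CPM of podocyte markers chosen after seeing the data. Without the 3 libraries under the limit, 22 members were called, 11 higher and 11 lower, 38.6% of the 57 tested against 31.6% of all genes (12.5% higher and 19.0% lower). These shared 13 with the 14 called over all libraries (Syt13 was lost) and those added included Nsf, Rab27a, Rab3b, Stx1a, Stx2, Stxbp2, Stxbp5 and Syt15. Without the 5 libraries over it, 4 were called, Syt5, Sytl2 and Syn3 higher and Syn2 lower, 6.45% of 62 tested against 7.36% of all genes. The share of all genes called thus moved with that of the members. The log2 fold change of Sv2a was 2.64 without the 3 and 0.81 without the 5 libraries, and that of Rab27b 1.02 and 0.57. For Syt17 it was 2.22 and 0.82, for Unc13b 0.73 and 0.32, and for Syt7 -2.42 and -1.87. The 10 genes that were not called without the 5 libraries had adjusted p of 0.085 to 0.689. All 14 kept their sign in both. Without the 5, control cells were 3 libraries, of which 1 was on the control diet and was taken to vary like the other groups.

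Leaving out 1 library at a time gave 8 to 21 called members over both diets (11.9 to 36.8% of those tested, all genes 10.4 to 28.2%), and the 14 kept their sign throughout. Syt5, Syt7, Syn2, Sytl2 and Vamp5 were called each time. Doc2a was not called without the control-diet macula densa replicate 1 (adjusted p 0.073) or the low salt enalapril macula densa replicate 1 (0.058). Rab27b was not called without the former (0.062) or the low salt enalapril macula densa replicate 2 (0.064), and Syn3 not without the control-diet macula densa replicate 2 (0.0502). Sv2a was not called without either control-diet macula densa library (0.064 and 0.080) or the low salt enalapril replicate 1 (0.160). Syt13 lost its call without control-diet macula densa replicate 2 (0.119) or low salt enalapril replicate 1 (0.360). Syt17 lost it without either control-diet macula densa library (0.053 and 0.063) or low salt enalapril replicate 2 (0.125). Syt11, Unc13b and Stx11 each lost it in 8 of the 12 runs, with adjusted p up to 0.142, 0.145 and 0.117. Syt11 and Unc13b lost it without any 1 of the 4 macula densa libraries. Syt11 lost it also without control-cell control diet replicate 2 or 3 or low salt enalapril replicate 1 or 4, and Unc13b without control diet replicate 1 or 2 or low salt enalapril replicate 2 or 4. Stx11 lost it without macula densa control diet replicate 2, either low salt enalapril macula densa library, control-cell control diet replicate 1, 2 or 3, or control-cell low salt enalapril replicate 2 or 4. Without the control-cell control diet replicate 4 the count was 21 (36.8%, all genes 28.2%), and those added included Nsf, Rab3b, Stx1a, Stx2, Stxbp2 and Syt15. The count was 8 without either control-diet macula densa library (11.9% each, all genes 13.9% and 10.4%) and 9 without the low salt enalapril macula densa replicate 2 (14.8%, all genes 11.7%). Over the 21 or 22 other settings of scaling, filter, tool, block and left-out library the adjusted p ran from 1.24e-06 to 0.0307 for Syt5, 1.05e-06 to 0.0202 for Syt7 and 6.70e-06 to 0.0473 for Sytl2.

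Other genes of the exocytosis pathway were described from 5 further lists, whose counts over both diets stand against 7.48% of all genes called higher and 13.9% called lower. None of the 9 exocyst subunits, which tether vesicles at the plasma membrane, was called in any comparison. Of 21 tested active zone, CAPS, ferlin and related factors, 4 were called higher and 5 called lower in macula densa over both diets. The higher ones were the active zone scaffolds Bsn and Pclo and the liprins Ppfia3 and Ppfia4. Pclo was at 45.6, 52.6, 32.4 and 33.1 CPM in macula densa libraries and 15.1 to 24.4 CPM in 7 of 8 control-cell libraries, with control diet replicate 4 at 46.1 CPM (log2 fold change 0.86, SE 0.24, adjusted p 0.0249). Bsn was at 1.95, 3.75, 5.56 and 2.62 CPM against 0.310 to 2.10 CPM (log2 fold change 1.61, SE 0.38, adjusted p 0.0114). For Ppfia3 and Ppfia4 the log2 fold changes were 2.04 (SE 0.46) and 1.83 (SE 0.50), with adjusted p of 0.00905 and 0.0235.

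The lower genes of that list were the ferlins Dysf and Myof, the active zone proteins Erc1 and Erc2, and the membrane tether Esyt1. Erc2 was at 3.28, 4.81, 1.92 and 1.31 CPM in macula densa and 5.67 to 34.6 CPM in control-cell libraries, without overlap (log2 fold change -2.67, SE 0.44, adjusted p 0.00174). Dysf, the membrane repair ferlin, was at 6.57, 1.63, 12.8 and 7.38 CPM in macula densa and 44.2 to 83.1 CPM in 7 control-cell libraries, with control diet replicate 4 at 4.96 CPM (log2 fold change -3.09, SE 0.63, adjusted p 0.00567). For Erc1, Esyt1 and Myof the log2 fold changes were -0.52 (SE 0.15), -1.12 (SE 0.25) and -0.57 (SE 0.18), with adjusted p of 0.0287, 0.00855 and 0.0414. The median log2 fold change of the list was -0.20, against -0.06 over all genes.

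Of 17 tested further SNAREs and Sec1/Munc18 proteins, the Golgi SNARE Bet1 (log2 fold change 1.18, SE 0.26, adjusted p 0.00864) and Scfd1 (0.55, SE 0.17, adjusted p 0.0406) were higher and Gosr2 (-0.76, SE 0.23, adjusted p 0.0360) was lower. Of 10 tested synaptic vesicle membrane proteins and vesicular transporters, Syngr1, synaptogyrin, was higher. It was at 5.33, 5.29, 6.13 and 3.61 CPM in macula densa and 1.13 to 3.05 CPM in control-cell libraries (log2 fold change 1.25, SE 0.29, adjusted p 0.0101). Of 6 tested dense core vesicle genes 2 were lower, Pam, the peptide amidating enzyme (-0.94, SE 0.28, adjusted p 0.0318), and Cpe, the prohormone carboxypeptidase. Pam was at 27.2, 23.0, 32.8 and 36.3 CPM in macula densa and 37.8 to 134 CPM in control-cell libraries. Cpe gave 11 counts in macula densa and 239 in control cells, a pooled level 10.1 (95% interval 5.55 to 20.5) times higher in control cells (adjusted p 0.00469), and 18.8 times without the low salt enalapril macula densa replicate 1. No gene of these lists was called in the diet comparisons.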

How the data were processed

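The table deposited by the authors holds estimated counts per gene (16.1% of its values are not whole) for 12 libraries of sorted mouse kidney cells, made with a stranded total RNA kit per the labels. STAR 2.61, Partek and mm10 are named in the submitters' processing notes, and the strand setting of the counting was not given in the sources used here. Gene symbols and coordinates matched GENCODE M21 on GRCm38 for 23351 of 23378 genes. Counts were rounded. Genes that passed filterByExpr (minimum count 10, total 15; 14180 genes) were fitted with edgeR 4.0.16 (R 4.3.3) quasi-likelihood models, 1 coefficient per group, scaled by trimmed means of M values, and p-values were adjusted by Benjamini-Hochberg over all 14180. The SE is the absolute log2 fold change divided by the root of F. Ratios for genes at or under 3 counts come from pooled counts with exact 95% intervals, which cover counting error only. limma 3.58.1 and DESeq2 1.42.0 were alternatives, beside other scalings, filters, replicate blocks and left-out libraries. Members were found by symbol (1 symbol with a pseudogene suffix was left out), and genes given per library were those called, the smallest p-values where none was called, the highest level per length in each role, and the textbook neuronal and epithelial fusion genes; a few genes enter the counts and sums but are not reported here by name. The members, gene lists and tests were chosen with earlier results of these data known. On simulated data with 200 genes changed 4-fold, the test over both diets recovered 65% among 13607 genes with 7 false calls, and the control-cell diet test 64.5% among 13693 with 4 false calls. No 2 libraries of a group agreed within sampling noise (chi-square per gene 8.71 to 74.6).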

Additional observations from a re-analysis of the deposited data

Results flagged for a closer look

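In 3 of the 34 sets of 4 control-cell libraries checked, 1 library lay far from the other 3 by the gap over the range, where chance gives 1.7. All 3 sets were control cells on the control diet with the other libraries at 0. Doc2a was at 0.109 CPM in replicate 1, Syt13 at 0.282 CPM in replicate 2 and Syt5 at 0.188 CPM in replicate 2. Each is 1 to 3 counts. With the other libraries at 0 even 1 count lies far by this measure, so the 1.7 is no yardstick for these sets.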

How the results depend on the processing

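The 14 genes called over both diets kept their sign under every alternative that tested them (4 of the 14 were tested at a mean of at least 5 CPM), and of their 326 values 267 stayed on their side of the threshold and 59 did not. The number of members called over both diets was 14 in the main analysis, 5 with a mean of at least 5 CPM (31 members tested), 7 with the replicate block of title numbers (12.3%, all genes 13.5%), 22 without the control-cell libraries under 300 CPM of podocyte markers and 4 without those over it, and 8 to 21 without 1 library. On the control diet it was 5, against 2 at 5 CPM, 11 with the DESeq2 test, 10 with limma-voom, 2 with the title-number block, 11 with the block of description numbers, 16 and 2 in the same podocyte splits, and 0 to 11 without 1 library. Under low salt with enalapril it was 0, against 3 with library totals alone, 1 without Gm42418, Mir6236 and mitochondrial genes, 1 without a filter, 1 at 5 CPM, 5 with the DESeq2 test, 1 with limma-voom, 4 with the compared groups alone, 10 with the description-number block, 14 and 1 in the podocyte splits, and 0 to 7 without 1 library. In the control-cell diet comparison 1 member, Sytl2, was called without the libraries over 300 CPM. The share of all genes called changed as well (members in brackets). Over both diets it was 28.0% at 5 CPM (16.1%) and 31.6% without the libraries under 300 CPM of podocyte markers (38.6%). With library totals alone it was 23.1% (28.1%). On the control diet it was 9.09% at 5 CPM (6.45%), 14.1% with DESeq2 (19.3%) and 13.5% with limma-voom (17.5%). The title-number block gave 2.67% (3.51%) there, the description-number block 16.2% (19.3%), and leaving out the libraries under 300 CPM 22.5% (28.1%). Under low salt with enalapril the share of all genes rose as well, from 7.27% in the main analysis (0 members). It was 10.2% with the compared groups alone (4 of 50 members) and 13.6% with DESeq2 (8.77%). The description-number block gave 15.7% (17.5%) under that diet, and leaving out the libraries under 300 CPM 17.4% (24.6%). Library totals alone moved the median log2 fold change of all genes over both diets from -0.06 to 0.14, and 12 members were then higher and 4 lower. Correlations of deviations from group means were -0.377 to 0.278 between libraries with the same title number. For the 4 shared description numbers they were 0.227, -0.0183, 0.0753 and -0.0371. With 2 macula densa libraries per diet the 2 deviations mirror each other, so these correlations cannot decide whether libraries were paired. The labels do not say what the description numbers mark. Over both diets the description-number block called 19 members (33.3%, all genes 26.0%) and shared 12 with the 14: Doc2a and Syt13 were not called, and Nsf, Rab27a, Rab3b, Stx2, Stxbp2 and Syt15 were among those added. Depth limits the 23 untested genes, and with 2 macula densa libraries per diet the diet comparison in these cells recovered 24% of simulated 4-fold changes.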
